A study of Danio rerio with 8 samples.

Results

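The genes described here are 7 target genes of the transcription factor p53: mdm2, ccng1, cdkn1a, phlda3, pmaip1, bbc3 and baxa. They were chosen by symbol, and all 7 were found among the 31200 gene symbols of the table, with baxa listed in 2 entries, one of which was 0 in every library. The RNA came from zebrafish primordial germ cells, the embryonic precursors of eggs and sperm. The series asks how GPI transamidase, the enzyme that attaches glycosylphosphatidylinositol anchors to proteins, bears on the migration of these cells, and it compares wild type embryos with embryos homozygous for a mutation of pigu, which codes for a subunit of that enzyme. Wild type embryos were of the Tuebingen (Tu) and India strains, and the pigu allele was not described. Embryos of both genotypes had been injected as zygotes with GFP mRNA carrying the nanos1 3′ UTR, which marks germ cells, and green cells were picked by hand after mechanical dissociation at the shield stage (early gastrula) or the bud stage (end of gastrulation). A library was made with SMART-seq2 from cells pooled over embryos of the same genotype. There were 2 libraries, described as biological replicates, in each of 4 groups: wild type shield, mutant shield, wild type bud and mutant bud.

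p53 is a transcription factor that is kept at low levels by degradation and accumulates when DNA is damaged or when ribosome assembly, replication or other basic processes are disturbed. Its targets fall into feedback genes that restrain p53 itself, genes that slow the cell cycle, genes that alter survival signalling, and genes of the BCL2 family that open the outer mitochondrial membrane and start apoptosis. In zebrafish embryos, losing or blocking p53 is widely used to separate its response from other effects of a mutation or an injected reagent.

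Values are FPKM, which scale fragments to transcript length and library size, and they are given library by library, replicate 1 before replicate 2. Read depth is unknown, so no counting interval can be given. The libraries differed widely in how much they detected, with 5878 to 13007 symbols at FPKM of at least 1 and 17.4% to 72.4% of the total FPKM in entries of the mitochondrial genome. Fewest symbols were found in mutant shield replicate 1 (5878), mutant bud replicate 1 (6708) and wild type shield replicate 1 (8338), and these 3 libraries listed 53.3%, 49.3% and 34.4% of tested genes at 0. In the same 3 libraries, 10, 9 and 5 of 137 genes for ribosomal proteins, proteasome subunits, translation initiation factor 3 and RNA polymerase II were also at 0, against 0 to 3 in the other libraries, so a 0 is given only as a listed value. In wild type, pigu itself read 11.5 and 15.0 at shield and 2.78 and 14.6 at bud. In the mutant, pigu read 0.813 and 10.95 at shield, below both wild type libraries, and 0 and 7.32 at bud, where the genotypes overlapped. The level of the transcript is a weak check of the labels where the kind of mutation is not known. Of the 13 germ cell markers, at least 11 had FPKM of at least 1 in every library, with piwil1 at 0 in mutant shield replicate 1 and piwil1 and buc at 0 in mutant bud replicate 1. Markers of somatic cells were not absent, and their sums are given below beside the results.

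mdm2 codes for the ubiquitin ligase that marks p53 for degradation, and it closes the main feedback loop of the pathway. In wild type, mdm2 read 0 and 16.1 FPKM at shield and 14.4 and 57.2 at bud. In the mutant, mdm2 read 10.7 and 17.8 at shield and 15.4 and 6.92 at bud. 5 of the 8 libraries lay between 10.7 and 17.8, while wild type shield replicate 1 was at 0 and wild type bud replicate 2 stood far above the next, at 57.2. The genotypes overlapped at both stages. mdm4, the partner of mdm2 that binds and inhibits p53, followed another order. In wild type, mdm4 read 1.57 and 37.9 at shield and 16.9 and 35.0 at bud. In the mutant, mdm4 read 2.86 and 12.4 at shield and 74.1 and 14.1 at bud. Its highest value was thus in mutant bud replicate 1, where mdm2 was at a middle level.

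ccng1, which codes for cyclin G1, a feedback partner of Mdm2 in mammals, had the highest FPKM of the 7 genes in every library. In wild type, ccng1 read 218 and 291 at shield and 280.3 and 393 at bud. In the mutant, ccng1 read 76.1 and 288 at shield and 202 and 145 at bud. It alone of the 7 reached an FPKM of 1 in all 8 libraries. Both mutant bud libraries lay below both wild type bud libraries, and at shield the genotypes overlapped.

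cdkn1a codes for p21, the inhibitor of cyclin-dependent kinases through which p53 halts the cell cycle. It was listed at 0 in replicate 1 of wild type shield, mutant shield and mutant bud, the 3 libraries with the fewest genes. At shield the remaining wild type library read 2.97 and the remaining mutant library 6.48. At bud, cdkn1a read 1.77 and 25.1 in wild type and 5.66 in mutant replicate 2. The high value of wild type bud replicate 2 had no counterpart in its own replicate, which was lower than the mutant bud library in which the gene was read.

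phlda3, whose product represses Akt survival signalling in mammals, differed most between libraries. It was listed at 0 in wild type shield replicate 1, in both mutant shield libraries and in mutant bud replicate 1. It stood at 1.74 in wild type shield replicate 2, at 2.06 and 93.6 in wild type bud, and at 7.69 in mutant bud replicate 2. A single library, wild type bud replicate 2, therefore held most of the signal of this gene.

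Of the apoptosis genes, pmaip1 codes for Noxa and bbc3 for Puma, both BH3-only proteins that neutralize the protective members of the BCL2 family. In wild type, pmaip1 read 0.697 and 5.998 at shield and 14.8 and 6.44 at bud. In the mutant, pmaip1 read 0 and 0.725 at shield and 0.771 and 7.05 at bud. Both bud libraries were higher than both shield libraries in each genotype. Unlike the other genes, pmaip1 was higher in replicate 1 than in replicate 2 of wild type bud. bbc3 was listed at 0 in 6 libraries and stood at 0.286 in wild type shield replicate 2 and at 8.35 in wild type bud replicate 2. It had FPKM of at least 1 in 1 library alone and was not tested.

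baxa codes for Bax, which forms pores in the outer mitochondrial membrane once the BH3-only proteins release it. In wild type, baxa read 8.82 and 13.1 at shield and 6.84 and 11.6 at bud. In the mutant, baxa read 8.03 and 6.67 at shield and 0 and 32.6 at bud, so the mutant bud libraries held both its lowest and its highest value. Both mutant shield libraries lay below both wild type shield libraries. Its paralog baxb was read at bud alone at FPKM of at least 1, with 5.78 and 5.16 in wild type and 0 and 4.64 in mutant.

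**Figure D1:**
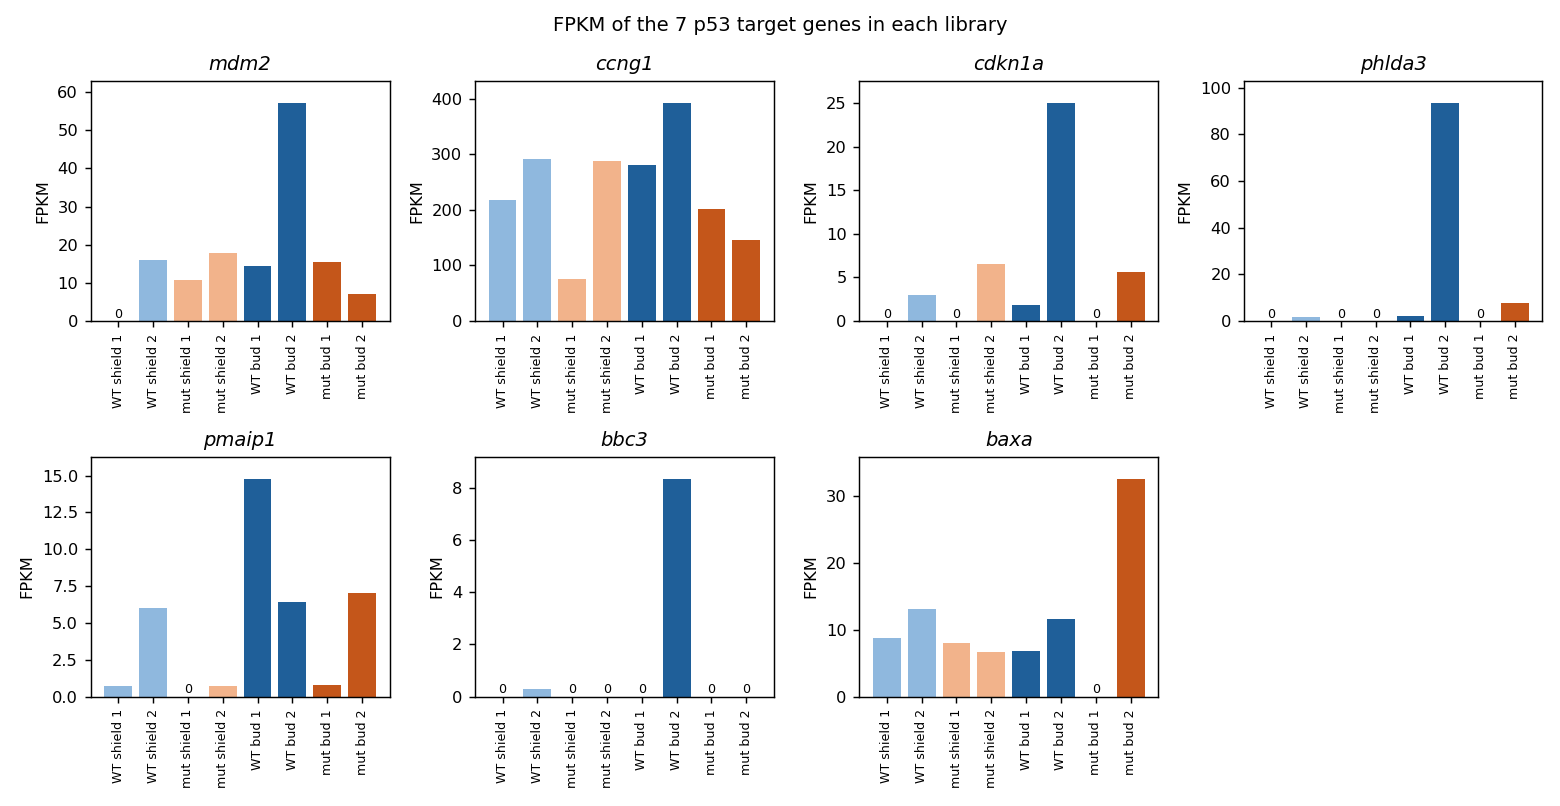
FPKM (bars, linear axis from 0, with its own scale in each panel) of the 7 target genes in each of the 8 libraries, in pale and dark blue for wild type (WT) shield and bud and in pale and dark orange for mutant (mut) shield and bud; a printed 0 marks a gene listed at 0. mdm2, ccng1, cdkn1a, phlda3 and bbc3 have their highest bar in wild type bud replicate 2, pmaip1 in wild type bud replicate 1 and baxa in mutant bud replicate 2.

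The number of the 7 genes read was lowest in the libraries that read the fewest genes in all. In wild type, 2 and 6 of the 7 had FPKM of at least 1 at shield and 6 and 7 at bud, beside 58.7%, 85.9%, 79.8% and 89.2% of all tested genes in the same libraries. In the mutant, 3 and 4 did at shield and 2 and 6 at bud, beside 41.4%, 82.9%, 47.0% and 81.0%. Only wild type bud replicate 2, which also read the most genes, had all 7. Here, fewer cells that express a gene and less RNA per cell cannot be told apart, since each library is a pool. Lower detection in a library as a whole cannot be told apart from either, and its part was not tested.

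**Figure D2:**
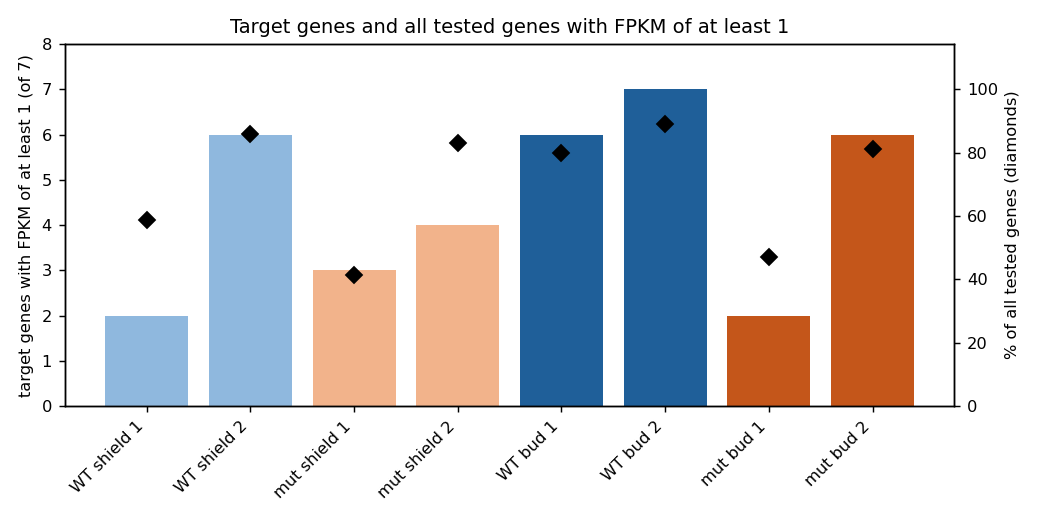
Number of the 7 target genes with FPKM of at least 1 in each library (bars, left axis) beside the percentage of all 13984 tested genes at that level (diamonds, right axis, on which 100% is at the height of 7 genes). Bars are at 2 or 3 in the 3 libraries whose diamonds are lowest and at 4 to 7 in the others.

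The comparisons that follow share libraries and are therefore not independent of each other. The genotype was compared at each stage with a limma-trend fit of log2(FPKM + 1) across 13984 genes, of which 6 of the 7 targets were part. On this scale the differences of low genes are understated. At shield, limma called 0 of the 6 targets, as it called 0% of all genes tested (0 genes; 201 at an unadjusted p under 0.05). Mutant minus wild type, the log2 difference was 1.84 (SE 1.54) for mdm2 and 0.46 (SE 1.68) for cdkn1a. It was −0.73 (SE 1.69) for phlda3, −0.76 (SE 0.80) for ccng1, −1.39 (SE 1.53) for pmaip1 and −0.50 (SE 1.68) for baxa, each with an adjusted p of 1. The median of the 6 was −0.61, and that of all genes −0.30. The positive value of mdm2 rested on the 0 in wild type shield replicate 1: without that library it was −0.20. That of cdkn1a then was −0.54, and the median of all genes was −0.92, below both. Leaving out mutant shield replicate 1 instead turned ccng1 to 0.19 and the median of all genes to 0.49. Of the 6, baxa alone had libraries that did not overlap between genotypes and lay lower in the mutant, where 12.2% of all genes did the same.

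At bud all 6 tested targets had a negative difference, meaning lower means in mutant cells, and so did 66.5% of all genes. After quantile normalization baxa turned positive (0.45). The log2 difference was −2.53 (SE 1.69) for phlda3, −1.72 (SE 1.68) for cdkn1a, −1.52 (SE 1.53) for pmaip1, −1.39 (SE 1.54) for mdm2, −0.95 (SE 0.80) for ccng1 and −0.78 (SE 1.68) for baxa. None passed the test (limma adjusted p = 0.959 to 0.987), and limma called 0% of all genes, with 677 at an unadjusted p under 0.05. The median of the 6 was −1.46 against −0.51 for all genes. ccng1 alone had libraries that did not overlap and lay lower in the mutant, where 28.9% of all genes did so.

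The bud difference rested in large part on wild type bud replicate 2. Without it the log2 difference was −0.05 for phlda3, −0.10 for cdkn1a and −0.43 for mdm2, and the median of the 6 was −0.43 against −0.28 for all genes. ccng1 then stood at −0.71 and baxa at −0.44, while pmaip1, which was not high in that library, moved to −2.06. Without mutant bud replicate 1, in which cdkn1a, phlda3 and baxa were listed at 0, baxa turned to 1.76 and phlda3 moved to −0.97, cdkn1a to −0.35, and pmaip1 to −0.43. mdm2 and ccng1 became more negative, at −1.92 and −1.18. The median of the 6 was then −0.70 (−0.20 for all genes). Without mutant bud replicate 2 it was −2.85 (−0.90 for all genes). Over both stages together the median was −0.75 (−0.42 for all genes), with mdm2 at 0.23 and the other 5 negative, as were 71% of all genes. limma called 0 of the 6 and 0% of all genes (597 at an unadjusted p under 0.05). None of the 6 was separated in the same direction at both stages, where 4.46% of all genes were lower in the mutant in this way.

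**Figure D3:**
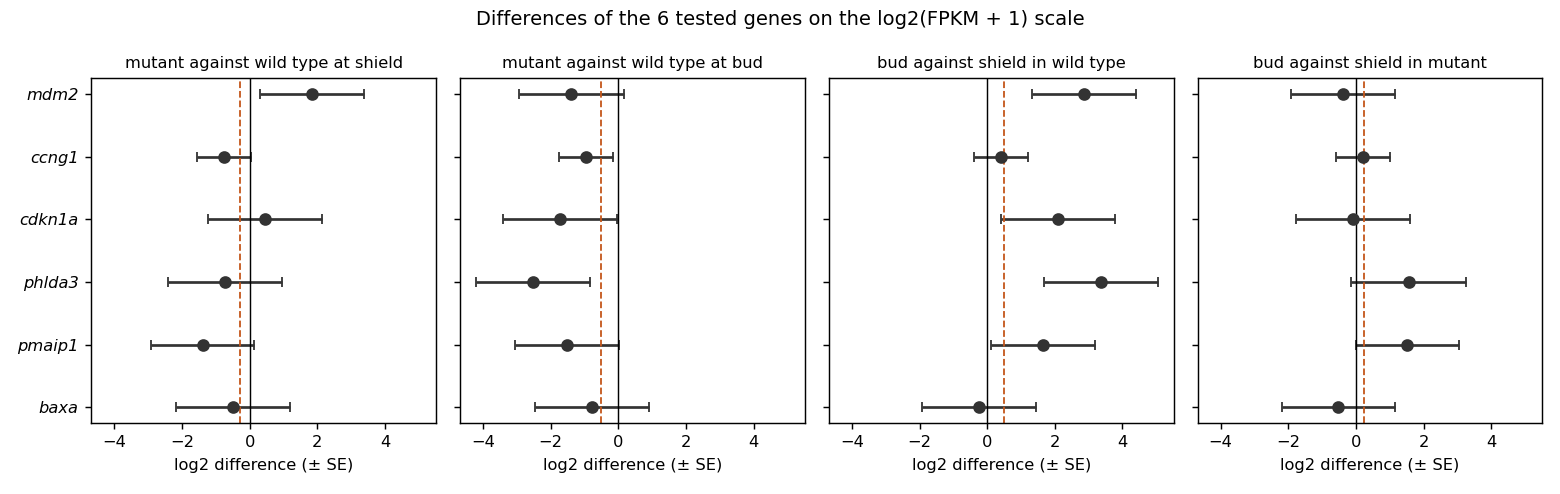
Log2 difference (points) with its SE (bars) from the limma fit for the 6 tested target genes in 4 comparisons, on the log2(FPKM + 1) scale; the solid line marks 0 and the dashed line the median of all 13984 genes. At bud all 6 points lie below 0 (−0.78 to −2.53), as does the median of all genes (−0.51), and baxa is at 0.45 after quantile normalization.

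Between stages, 5 of the 6 tested targets had higher means at bud than at shield in wild type cells, as did 68.5% of all genes. The log2 difference was 3.36 (SE 1.69) for phlda3, 2.86 (SE 1.54) for mdm2, 2.09 (SE 1.68) for cdkn1a, 1.65 (SE 1.53) for pmaip1, 0.40 (SE 0.80) for ccng1 and −0.24 (SE 1.68) for baxa. All had a limma adjusted p of 1, and 0% of genes were called (467 at an unadjusted p under 0.05). The median was 1.87 against 0.51 for all genes, and without wild type bud replicate 2 it was 0.68 against 0.31. Without wild type shield replicate 1, in which mdm2, cdkn1a and phlda3 were listed at 0, it was 0.72 against −0.06 for all genes, and mdm2 stood at 0.81. The value of ccng1 turned to −0.09 after median-of-ratios scaling. phlda3 and pmaip1 were higher in both bud libraries than in both shield libraries, as were 29.1% of all genes.

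In mutant cells the same comparison gave 1.56 (SE 1.69) for phlda3 and 1.52 (SE 1.53) for pmaip1. The other 4 lay between −0.52 (baxa) and 0.21 (ccng1), and the median was 0.06 against 0.25 for all genes. The median moved to −0.56 without mutant shield replicate 1 (−0.47 for all genes), 1.26 without mutant shield replicate 2 (1.04) and 1.65 without mutant bud replicate 1 (0.70). The value of phlda3 was 0 without mutant bud replicate 2 and 3.12 without mutant bud replicate 1. No target was called, and 0% of genes were (928 at an unadjusted p under 0.05). pmaip1 was higher in both mutant bud libraries than in both mutant shield libraries, which held for 14.7% of all genes. It was thus the 1 target whose bud libraries exceeded its shield libraries in both genotypes, a pattern that 7.45% of all genes shared. Over both genotypes the stages differed by 1.59 on the log2 scale for pmaip1 (SE 1.08, limma adjusted p = 0.626), with 0 of the 6 targets and 0.0143% of all genes called. phlda3 had the largest value there, at 2.46 (SE 1.20, limma adjusted p = 0.542).

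Whether the genotype difference itself changed from shield to bud was tested as an interaction. All 6 targets had a negative value, from −0.13 (SE 2.17) for pmaip1 to −3.24 (SE 2.18) for mdm2, and each had a limma adjusted p of 1.00. Of all genes, 55% had a negative value. pmaip1 and baxa turned positive after quantile normalization (0.51 and 0.76). 0% of all genes were called (199 at an unadjusted p under 0.05), and the median was −1.04 for the targets and −0.16 for all genes. Without wild type bud replicate 2, 3 of the 6 were positive, as were 50% of all genes.

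The 2 wild type bud libraries can be compared directly, since they carry the same labels. On the log2(FPKM + 1) scale replicate 2 was higher than replicate 1 by 4.95 for phlda3, and 5 of the 13984 tested genes, phlda3 among them, had a gap at least as large. The gap was 3.24 for cdkn1a (0.651% of tested genes had one at least as large), 3.23 for bbc3 (0.665%) and 1.92 for mdm2 (6.45%). It was 0.69 for baxa (33.5%), 0.49 for ccng1 (41.4%) and −1.09 for pmaip1 (94.0%). The median gap of all genes was 0.29. bbc3 is not among the tested genes, which leave out every gene that, like it, reached an FPKM of 1 in a single library. Its 0.665% is therefore not a rank among genes of its kind. Ignoring sign, the median gap of all genes was 0.61 in wild type bud. It was 1.22 for shield wild type, 1.72 for shield mutant and 1.51 for bud mutant. Gaps of phlda3, cdkn1a and bbc3 were largest in wild type bud, with at most 3.12, 2.90 and 0.36 elsewhere. Those of mdm2 (4.10, shield wild type), baxa (5.07, bud mutant), ccng1 (1.91, shield mutant) and pmaip1 (2.18, bud mutant) were largest in other groups. Each gap is a value of 2 libraries with no test. Of the 6 tested targets, 4 had their highest value in wild type bud replicate 2, where 15.6% of tested genes had theirs. So did bbc3, which reached an FPKM of 1 in that library alone and is not among the tested genes. Sums over the 13 germ cell markers were 10314 in replicate 1 and 17179 in replicate 2 of wild type bud, and without nanos3, the most abundant, they were 6522 and 9933. Those over the 21 somatic markers were 925 and 1129, and without ved, the most abundant, 130.4 and 74.9, in the opposite order. Of the 19 tested somatic markers, 7 were higher and 8 lower in replicate 2, where 63.0% of all genes were higher. The 15 immediate early and heat shock genes that dissociation can induce summed to 1437 and 967, and without hspb1, the most abundant, to 166 and 206, also in the opposite order. Of the 13 tested, 9 were higher and 4 lower in replicate 2, a share of 69.2% higher that is near the 63.0% of all genes. Among the 9 was fosab (5.96 and 31.4), which was named after its values were seen, and among the 4 was dusp1 (52.8 and 42.3). The part of cell content or handling in the wild type bud gap was not tested.

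**Figure D4:**
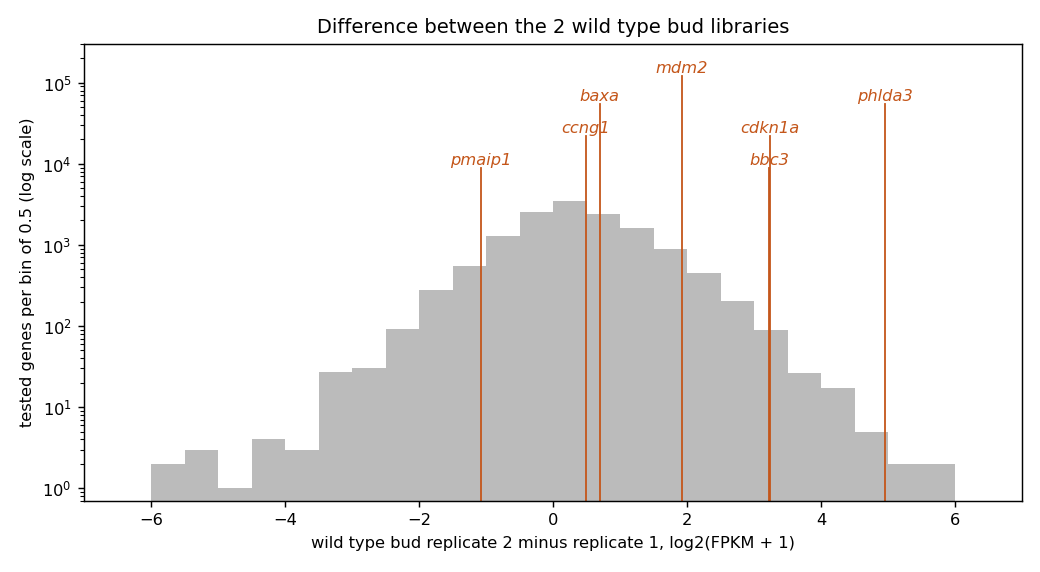
Difference between the 2 wild type bud libraries (replicate 2 minus replicate 1, log2(FPKM + 1), horizontal axis) for all tested genes, as the number of genes in each bin of 0.5 (grey, log scale), with orange lines at the 7 target genes. phlda3 (4.95), cdkn1a (3.24) and bbc3 (3.23) lie in the right tail, while pmaip1 (−1.09) lies left of the median of 0.29. bbc3 is not among the tested genes, which leave out genes that reached an FPKM of 1 in a single library.

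A wider list of p53 targets known from other vertebrates held 31 genes, of which 30 were in the table and 25 were tested. Their highest value lay in wild type bud replicate 2 for 10 of the 25, against 15.6% of all genes. sesn1, a sestrin that restrains growth signalling under stress, stood at 45.9 and 154 in wild type bud, and sesn3 at 5.05 and 42.4. rps27l, a ribosomal protein variant, stood at 78.3 and 131 there. The DNA damage gene gadd45aa was listed at 0 in 6 libraries and stood at 0.608 and 26.0 in wild type bud, and the death receptor gene fas was listed at 0 in every library other than wild type bud replicate 2, where it had 0.345. These 5 were named after their values were seen, and gadd45aa and fas were not tested. Of the 25, 20 were higher in replicate 2 than in replicate 1 of wild type bud, as were 63.0% of all genes. The 5 lower were btg2 (33.4 and 25.7), xpc (53.9 and 40.9), apaf1 (7.59 and 2.65), ddb2 (37.3 and 36.1) and pcna (753 and 739). btg2 is also in the list of immediate early and heat shock genes above. zmat3, tigara and plk2a were listed at 0 in all 8 libraries.

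In the genotype comparison the 25 genes were split 11 higher and 14 lower in the mutant at shield, with a median of −0.04 (−0.30 for all genes), and 6 higher and 19 lower at bud, with a median of −0.98 (−0.51 for all genes). limma called 0 of the 25 in either. Without wild type bud replicate 2 the bud split was 8 higher and 16 lower and the median −0.35, against −0.28 for all genes. By the smallest unadjusted p over both stages, the rule that picks examples named tigarb, ei24, casp8 and gadd45ab. tigarb codes for a counterpart of a mammalian enzyme that lowers glycolysis. In wild type, tigarb read 21.8 and 16.6 at shield and 25.1 and 30.6 at bud. In the mutant, tigarb read 3.005 and 3.17 at shield and 0 and 10.6 at bud (log2 difference −2.68, SE 1.07, limma adjusted p = 0.983). casp8 codes for the initiator caspase of death receptors. In wild type, casp8 read 0 and 6.16 at shield and 4.44 and 11.8 at bud. In the mutant, casp8 read 0 and 6.03 at shield and 0 and 0.370 at bud. gadd45ab had the opposite sign: its bud libraries read 1.01 and 6.22 for wild type but 38.9 and 12.6 for mutant, and at shield it read at most 0.271. In wild type, ei24 read 7.75 and 79.7 at shield and 57.1 and 109 at bud. In the mutant, ei24 read 1.21 and 76.2 at shield and 2.32 and 30.9 at bud.

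Genes that act on p53 were split evenly at bud, and the difference from the targets was not tested. Of 25 in the list (mdm4 among them), 24 were tested, and 12 were higher and 12 lower in mutant cells at bud, with a median of −0.08. At shield 7 were higher and 17 lower (median −0.56). Between stages 22 of the 24 had higher means at bud in wild type (median 0.70) and 19 in mutant (1.04), and none was called. Of all genes, 68.5% were higher at bud in wild type (median 0.51) and 56.4% in mutant (median 0.25), and 63.5% and 66.5% were lower in the mutant at shield and at bud (medians −0.30 and −0.51). chek2 codes for a kinase that activates p53 after DNA damage. In wild type, chek2 read 15.5 and 33.8 at shield and 27.5 and 31.8 at bud. In the mutant, chek2 read 1.85 and 20.4 at shield and 20.9 and 6.15 at bud. cop1, a ubiquitin ligase for p53 in mammals, was at 0 in replicate 1 of mutant shield and stood at 17.8 to 60.1 elsewhere. rchy1, another such ligase, was also at 0 there and stood at 19.4 to 85.7 elsewhere.

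The remaining BCL2 family was lower in mutant means for most members at both stages. Of 15 tested genes, 12 were lower at shield (median −0.58) and 13 at bud (median −1.44), with 0 called. Of all genes, 63.5% were lower at shield (median −0.30) and 66.5% at bud (median −0.51). In wild type, the protective bcl2l10 read 55.7 and 94.6 at shield and 38.5 and 37.8 at bud. In the mutant, bcl2l10 read 40.8 and 57.2 at shield and 0 and 12.9 at bud (log2 difference over both stages −1.99, SE 0.90, limma adjusted p = 0.983). In wild type, bokb, a pore-forming relative of Bax, read 106 and 134 at shield and 111 and 62.1 at bud. In the mutant, bokb read 55.5 and 55.1 at shield and 101 and 9.07 at bud. The BH3-only gene bida was listed at 0 in mutant shield and mutant bud replicate 1 and stood at 5.93 to 17.4 elsewhere. bik, also BH3-only, was listed at 0 in both mutant shield libraries and had 10.999 and 0.592 in those of wild type. bada, another BH3-only gene, was named after its values were seen and, like bbc3, had FPKM of at least 1 in wild type bud replicate 2 alone, where it stood at 15.8.

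A list of caspases and mitochondrial death factors also held the apoptosis inhibitors xiap, birc2, birc5a and birc6. Of its 15 tested genes, 9 were lower in the mutant at shield (median −0.13) and 11 at bud (−1.07), with 0 called. These shares were near those of all genes (63.5% and 66.5%). casp3a, an executioner caspase, was listed at 0 in replicate 1 of the mutant at both stages. In wild type, casp3a read 25.3 and 37.5 at shield and 46.7 and 70.11 at bud, and the other mutant libraries read 27.4 and 25.8 (log2 difference over both stages −3.04, SE 1.23, limma adjusted p = 0.983). birc5a codes for survivin. In wild type, birc5a read 60.4 and 37.7 at shield and 181 and 117 at bud. In the mutant, birc5a read 41.8 and 33.7 at shield and 70.5 and 45.3 at bud. birc2 was listed at 0 in both mutant bud libraries and stood at 3.54 and 2.45 in wild type bud. At shield, birc2 read 0 and 1.57 in wild type and 0 and 1.03 in mutant. cradd, an adaptor of caspase 2, was read in both mutant replicate 2 libraries (9.10 at shield, 4.69 at bud) and listed at 0 in the other 6. Other inhibitors of cyclin-dependent kinases gave 4 tested genes, of which 3 were lower in the mutant at shield (median −0.82) and 3 at bud (median −1.27), with 0 called. For cdkn1bb, which codes for p27, the bud libraries read 125 and 134 for wild type and 39.3 and 42.3 for mutant, and at shield the genotypes overlapped (20.2 and 118 for wild type, 6.79 and 149 for mutant). For cdkn1ca, which codes for p57, they read 145 and 129 for wild type and 187 and 143 for mutant. cdkn3 was listed at 0 in wild type shield replicate 1, in both mutant shield libraries and in mutant bud replicate 1. It stood at 3.53 in wild type shield replicate 2, at 14.3 and 12.4 in wild type bud and at 8.28 in mutant bud replicate 2. For cdkn1cb the bud libraries read 22.0 and 13.2 for wild type and 9.31 and 8.16 for mutant.

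Levels of cell type markers varied between the libraries that carry the comparison at bud. Whether they reflect other cells in the pools or expression within germ cells was not tested. The 21 somatic markers summed to 877 and 2128 FPKM in mutant bud and to 925 and 1129 in wild type bud. ved made up most of the wild type sums, at 794 and 1054, and was lower in mutant bud, at 452 and 92.7. Over the other 20 markers the sums were 425 and 2036 in mutant bud. In wild type bud they were 130.4 and 74.9, below both mutant libraries. With ved kept, mutant bud replicate 1 (877) was instead below both wild type bud libraries. Most of its 425 without ved came from her7, six3b and neurog1. Of 19 tested somatic markers, 16 had higher means in the mutant at bud (median log2 difference 1.70), with 0 called. In wild type bud, 14 of the 21 had FPKM of at least 1 in each library, beside 79.8% and 89.2% of tested genes. All 21 were above 0 in mutant bud replicate 2, where 11.2% of tested genes were listed at 0. In mutant bud replicate 1, 10 were listed at 0, noto, tbx6, pax2a, sox2 and sox17 among them, as were 49.3% of tested genes. In that same library her7 stood at 253, six3b at 73.5 and neurog1 at 30.3, while wild type bud had 2.89 and 11.3 for her7 and 0 for the other two in both libraries. The 13 germ cell markers summed to 18421 and 3665 in mutant bud. At shield the somatic sums were 541 and 1229 in wild type and 562 and 1381 in mutant (239, 682, 527 and 565 without ved), and the germ cell sums were 8097 and 25100 against 5764 and 36124. In mutant shield replicate 1, 10 of the somatic markers were at 0, as were 53.3% of tested genes. The keratin genes krt18a.1 and krt5 stood at 265 and 81.1 there, against at most 17.4 and 1.34 in the other shield libraries. The highest value of baxa (32.6) was in the library with the highest somatic sum and the lowest germ cell sum, with or without the most abundant gene of each list, and the part of cell content in the target genes was not tested.

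The genes most like each target were sought over the 8 libraries by Pearson's r of log2(FPKM + 1), among 7142 or 7143 named genes with a mean of at least 5 FPKM. Libraries share their depth of detection, so high r are common, and the r are descriptions. For mdm2 the closest gene was sesn1, itself in the wider target list, with r = 0.97. In wild type, sesn1 read 0.319 and 34.4 at shield and 45.9 and 154 at bud. In the mutant, sesn1 read 15.9 and 29.9 at shield and 60.6 and 22.9 at bud. Both genes were lowest in wild type shield replicate 1 and highest in wild type bud replicate 2, and without those 2 libraries r was 0.58 over 6. dync1li2, a dynein light intermediate chain, was next for mdm2 (r = 0.96).

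**Figure D5:**
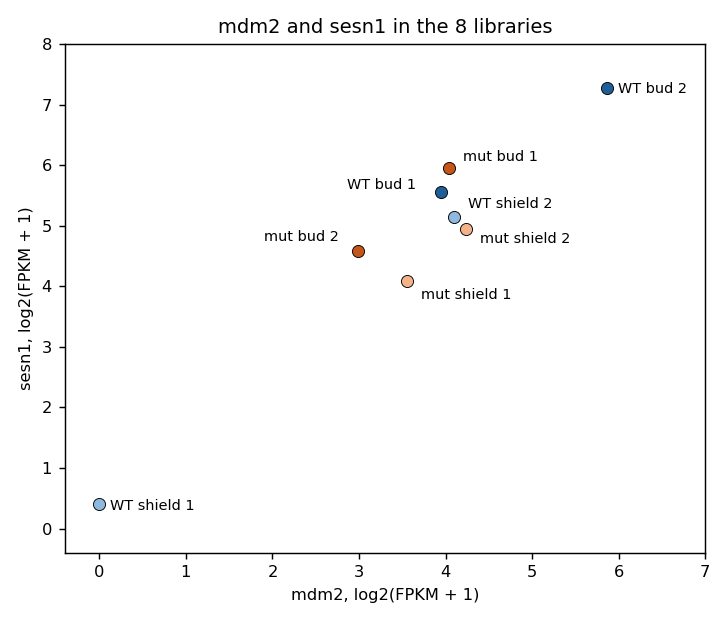
mdm2 (horizontal) against sesn1 (vertical), both as log2(FPKM + 1), in the 8 libraries, with blue for wild type (WT), orange for mutant (mut), pale for shield and dark for bud. 6 libraries lie close together, with wild type shield replicate 1 far below and wild type bud replicate 2 far above, and r is 0.97 with all 8 and 0.58 with the 6.

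For ccng1 the closest were tssc4 (r = 0.99) and prkcsh (0.97), and 148 genes had r over 0.9. For cdkn1a they were the splicing factor gene zrsr2 (0.95) and rnf144ab (0.95), for pmaip1 fam20b (0.97) and lrrc20 (0.96), and for baxa usf1 (0.98) and terfa (0.98). For phlda3 they were ino80b (0.91) and selenoj (0.88), and 1 gene alone had r over 0.9. Genes with r over 0.9 numbered 26 for mdm2, 30 for cdkn1a, 46 for pmaip1 and 56 for baxa. Without the 2 libraries farthest from the median of each target, r was 0.66 for baxa with usf1 and 0.70 with terfa. The libraries left out there were those of mutant bud. The other pairs of this paragraph then had r of 0.85 to 0.999. Libraries with zeros were still among those kept, so these r are not a check on shared zeros. Those kept for phlda3 read 0 to 2.06 for it. Those kept for cdkn1a include replicate 1 of mutant shield and of mutant bud, where cdkn1a, zrsr2 and rnf144ab were all at 0. Among the targets themselves r was highest for cdkn1a with phlda3 (0.82) and lowest for mdm2 with baxa (−0.11).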

How the data were processed

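The authors deposited 1 table of FPKM with a column per library. Trim Galore, STAR 2.5.3a, Cufflinks 2.2.1 and danRer11 are listed per the submitters' processing notes, and the annotation and the treatment of reads with several alignments are not given in the sources used here. Of entries that shared a symbol, that with the highest mean was used, and 2 entries lacking a value were dropped. FPKM were taken as log2(FPKM + 1). The 13984 genes that reached an FPKM of 1 in 2 or more of the 8 libraries were fitted across all genes with limma 3.58.1 in R 4.3.3 (trend, 4 group means, 4 residual degrees of freedom), with two-sided Benjamini-Hochberg adjusted p under 0.05. The fit was also run on simulated data, and the share of simulated differences that it called is not given here. A count of 0 called is therefore no measure of the absence of differences. Figures used Python 3.11.15 and matplotlib 3.10.9.

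The 7 targets, the other gene lists and the tests were chosen with earlier results of these data known. Named beyond the 7 were mdm4 and baxb, up to 4 genes a list with the smallest unadjusted p for genotype over both stages, and the 2 closest genes by r with a mean FPKM of at least 5. One gene that this rule picks is not reported here. Whether replicates came from separate crosses is not stated beyond the word biological, so p-values measure the spread between these libraries. The comparison of the wild type bud libraries was chosen after their values were seen. Same-numbered libraries are not said to be paired. Per the labels' protocols, RNA extraction is described for oocytes, and it is not stated whether that text applies to the picked cells.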

Additional observations from a re-analysis of the deposited data

How the results depend on the processing

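No target gene passed the limma test under any alternative run. Of 822 recomputed differences of the 6 targets, 764 kept their direction, 3 of phlda3 came to 0 and 55 turned. Of the 55, 33 turned with 1 library left out. Many of the 822 could not turn. Dropping the trend, changing the filter or using the replicate number as a block left each difference unchanged. So did leaving out a library that is not part of the comparison, so the 764 do not measure stability. After quantile normalization baxa turned at bud (0.45), over both stages (0.066) and in the interaction (0.76), pmaip1 turned in the interaction (0.51), and ccng1 turned between stages in mutant (−0.47) and over both genotypes (−0.17). Median-of-ratios scaling turned ccng1 between stages in wild type (−0.089), in mutant (−0.46) and over both genotypes (−0.28), cdkn1a in mutant (0.0071) and pmaip1 in the interaction (0.11). Scaling without mitochondrial entries turned ccng1 in mutant (−0.51) and over both genotypes (−0.20) and pmaip1 in the interaction (0.18). A pseudocount of 5 turned mdm2 over both stages (−0.14), baxa between stages in mutant (0.15) and in the interaction (0.33), and a pseudocount of 0.1 turned pmaip1 in the interaction (0.96). Leaving out replicate 1 of mutant shield together with replicate 2 of mutant bud turned ccng1 at shield (0.19), in mutant (−0.51) and over both genotypes (−0.059), and cdkn1a over both genotypes (−0.41). The median of all genes at bud, −0.51, was −0.34 after median-of-ratios scaling, 0.04 after quantile normalization and −0.74 without mitochondrial entries.

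The causes were not tested. Counts over all genes moved as follows. For genotype over both stages 1 gene was called with a filter at FPKM of 5, against 0. Between stages in mutant, against 0, there were 3 with that filter, 8 with median-of-ratios scaling, 7 with quantile normalization and 8 without mitochondrial entries. Over both genotypes, against 2, there were 8, 17 and 8 under the same 3 scalings, and 0 with a pseudocount of 0.1, with no filter, with no trend or with both libraries left out. With the replicate number as a block, 1 gene was called for genotype over both stages, 5 between stages in mutant, 9 over both genotypes and 1 for the interaction, and no target was. The numbers are shared but are not stated to pair libraries, and same-numbered libraries deviated together with r from −0.01 to 0.33.

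With each library left out in turn, between 0 and 146 genes were called between stages in mutant and between 0 and 63 over both genotypes, the highest counts both without mutant shield replicate 2. The log2 differences that turned ranged as follows. For genotype at shield they ranged for mdm2 from −0.20 to 3.89, cdkn1a from −0.99 to 1.91, ccng1 from −1.71 to 0.19. For genotype at bud they ranged for baxa from −3.32 to 1.76. Over both stages they ranged for mdm2 from −0.80 to 1.25, cdkn1a from −1.44 to 0.18, baxa from −1.91 to 0.63. Between stages in wild type they ranged for baxa from −0.58 to 0.10. Between stages in mutant they ranged for mdm2 from −0.91 to 0.14, cdkn1a from −1.54 to 1.37, ccng1 from −0.75 to 1.16, baxa from −3.06 to 2.01. Between stages over both genotypes they ranged for ccng1 from −0.18 to 0.78, baxa from −1.65 to 0.89. For the interaction they ranged for phlda3 from −4.28 to 0.67, ccng1 from −1.14 to 0.76, pmaip1 from −1.22 to 0.96, baxa from −2.82 to 2.25. A group with 1 library left is assumed to vary like the others. Read depth is unknown, and genes listed at 0 limit every difference of cdkn1a, phlda3 and bbc3.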
